A study of Mus musculus with 30 samples.

Results

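The nuclear genes of oxidative phosphorylation were taken as every row of the deposited gene tables whose symbol begins with Nduf, Uqcr, Cox followed by 4 to 8, or Atp5, which gave 88 of 23420 listed genes. Oxidative phosphorylation is the process by which mitochondria make ATP. Complexes I, III and IV pass electrons from NADH to oxygen and pump protons across the inner membrane, and complex V, the ATP synthase, lets the protons flow back and makes ATP. The complexes are assembled from subunits of both the nuclear and the mitochondrial genome, and the tables list 0 mitochondrially encoded genes, so the other genome's share was not analysed here. Activated T cells are known to use both glycolysis and mitochondrial respiration, in proportions that differ between helper types.

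The members comprised 7 core and 29 accessory subunits of complex I, 7 complex I assembly factors (Ndufaf1 to Ndufaf7), 8 subunits of complex III, 12 of complex IV and 15 of complex V. A further 8 were tissue-restricted isoforms of complex IV genes, and 2 were named after complex V without being counted as subunits here, Atp5s and Atp5sl. Ndufa4, although named after complex I, and Cox7a2l, which joins complexes III and IV into supercomplexes, were counted with complex IV. The members had a median transcript length of 679 bases, against 2157 for all listed genes, and lay on 19 chromosomes with at most 10 on any of them.

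All 10 groups measured by RNA-seq, 30 libraries in total, were grown from naive CD4 cells of C57BL/6 double reporter animals, in which GFP marks Foxp3 and Thy1.1 marks IL-10. Cells were activated with anti-CD3 (2.5 ug/ml) over irradiated splenocytes without CD4 cells, at 6 feeders per T cell. IL-12 (20 ng/ml) was added for Th1, IL-4 (20 ng/ml) for Th2, and IL-27 (25 ng/ml) for Tr1, a regulatory kind of helper cell. Non-pathogenic Th17 cultures received TGF-beta 1 (2 ng/ml) with IL-6 (25 ng/ml), and pathogenic Th17 cultures, written pTh17, received IL-1 beta (20 ng/ml), IL-6 (25 ng/ml) and IL-23 (20 ng/ml). At 72 h GFP-negative CD4 T cells were sorted by the IL-10 reporter into a positive and a negative compartment, 2000 cells were lysed per library, and each of the 10 groups held 3 libraries. The labels do not say whether these were separate cultures or animals, so p-values measure the spread between libraries. Because RNA from many cells was measured, a change in the share of some cells and a change in RNA per cell cannot be told apart. Totals ran from 4394704 to 11850597 expected counts per library and differed by group. They were 9872948 or more in Th2 libraries and lower in all others. In Th17 they were 5695832 to 5915474 in negative and 9410288 to 9774881 in positive libraries. In Th1 these were 5465169 to 7466395 and 7540038 to 9434381, while the compartments overlapped in Th2, pTh17 and Tr1. The 10 top genes took at most 16.4% of counts in Th2 and at least 17.2% in other libraries. The part of this share in the results was not tested. The T cell genes Cd3d, Cd3e, Cd3g, Cd4, Cd2, Lck and Lat were present in every library. Lat, the lowest, was at 206 CPM or more, where CPM are counts scaled to a common library total.

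In the results, 4 members stood against most others, Cox7a2l, Ndufa6, Uqcrh and Atp5sl. The 150 bases before the RefSeq start site (GRCm38.p6) are shown for the first 3 of these, for Cox7a2, the complex IV subunit to which Cox7a2l is related, and for Cox5a, which rose most in Th1 cells. Capitals mark searched motifs on either strand. The window of Cox7a2l (chr17:83514334-83514483, minus strand) held 1 SP1 match, as did those of Cox7a2 (chr9:79759854-79760003, minus) and Cox5a (chr9:57521082-57521231, plus). The window of Ndufa6 (chr15:82354292-82354441, minus) held a match to the core of the NRF1 site and a CCAAT box, and that of Uqcrh (chr4:116075071-116075220, minus) an ETS match and a CCAAT box.
Cox7a2l: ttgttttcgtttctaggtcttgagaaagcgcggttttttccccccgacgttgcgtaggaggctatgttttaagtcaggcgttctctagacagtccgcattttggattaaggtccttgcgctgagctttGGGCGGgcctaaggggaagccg
Cox7a2: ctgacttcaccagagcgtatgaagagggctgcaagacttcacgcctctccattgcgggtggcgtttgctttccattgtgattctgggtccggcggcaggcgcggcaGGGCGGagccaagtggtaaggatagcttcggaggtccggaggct
Ndufa6: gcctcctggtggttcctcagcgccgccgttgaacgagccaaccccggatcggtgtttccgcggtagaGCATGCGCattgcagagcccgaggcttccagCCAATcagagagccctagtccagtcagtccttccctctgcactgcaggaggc
Uqcrh: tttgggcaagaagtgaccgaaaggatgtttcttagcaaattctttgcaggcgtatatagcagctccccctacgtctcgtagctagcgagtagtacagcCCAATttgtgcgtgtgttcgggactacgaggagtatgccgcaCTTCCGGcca
Cox5a: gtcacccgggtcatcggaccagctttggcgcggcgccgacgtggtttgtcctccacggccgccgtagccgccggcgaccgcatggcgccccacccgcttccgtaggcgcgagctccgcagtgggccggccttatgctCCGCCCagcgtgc

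Subunit c, which forms the rotating ring of the ATP synthase, is encoded by 3 nuclear genes that give the same mature protein, and their shares of its summed level are given with the results. Their windows held partly different motifs. Atp5g1 (chr11:96075632-96075781, minus) had 4 CCAAT matches, of which 2 overlap head to head, and an E-box. Atp5g2 (chr15:102671048-102671197, minus) had a full NRF1 site, and Atp5g3 (chr2:73911327-73911476, minus) an ERR site and a CCAAT box.
Atp5g1: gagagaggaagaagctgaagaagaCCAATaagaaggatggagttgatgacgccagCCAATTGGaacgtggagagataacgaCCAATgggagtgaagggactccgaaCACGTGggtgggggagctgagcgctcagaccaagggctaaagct
Atp5g2: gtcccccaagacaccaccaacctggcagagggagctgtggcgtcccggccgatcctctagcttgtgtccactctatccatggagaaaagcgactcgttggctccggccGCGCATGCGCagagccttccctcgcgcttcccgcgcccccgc
Atp5g3: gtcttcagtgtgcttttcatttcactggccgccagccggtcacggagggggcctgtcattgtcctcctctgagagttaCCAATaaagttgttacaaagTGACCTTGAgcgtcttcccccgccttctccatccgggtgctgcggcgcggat

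Of the 88 members, 73 matched a RefSeq promoter window, and motifs were searched on both strands of the 250 bases before the start. Shares are given beside those in all 27025 genes with a window and in the 16378 of these that the deposited tables list. The NRF1 site, which is the core GCATGCGC with GC before it, was in 5 of 73 members (6.85%, against 0.88% of all and 1.23% of listed genes). The core, which overlaps it, was in 8 members (10.96%, against 2.56% and 3.47%). The ETS motif CCGGAAG, bound by GABP, was in 12 members (16.44%, against 7.83% and 10.17%). The shares lay closer together for the E-box CACGTG (9.59%, against 6.86% and 7.86%) and CCAAT (43.84%, against 37.49% and 39.27%). For the SP1 motif GGGCGG the members' 39.73% lay above the share in all genes (35.36%) and below that in listed genes (46.84%). ERR (TCAAGGTCA) was in 1 member and YY1 (AAGATGGC) in 2. The members' windows had a median GC content of 56.4%, against 52.4% for all windows. A match describes the letters and says nothing of binding.

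Levels are compared between genes as TPM, transcript abundances scaled for length and library. By role, the median of the members' mean TPM over the 30 libraries was 173 for core and 197 for accessory subunits of complex I, 317 for complex III, 649 for complex IV and 548 for complex V. Assembly factors, which help build complex I and leave it, were lower, with a median of 20.0 TPM. The 6 highest members were Cox4i1 (1286 TPM), Uqcrh (1164), Atp5b (928), Cox8a (886), Atp5h (778) and Ndufa4 (746). Cox4i1 and Cox8a are complex IV subunits, Uqcrh is the hinge protein of complex III, Atp5b is the catalytic beta subunit of the ATP synthase and Atp5h a subunit of its stalk.

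The tissue-restricted isoforms were close to absent. Of the 8, 6 did not pass the filter on low counts, and 5 of these had from 2 to 13 expected counts summed over all 30 libraries: Cox8b and Cox8c 2 each, Ndufa4l2 3, Cox7b2 12 and Cox6a2 13. Cox4i2 had 43 counts in 12 libraries. Cox4i2 and Ndufa4l2 are known as isoforms raised by low oxygen, and Cox6a2, Cox7a1 and Cox8b as muscle forms. Cox7a1 and Cox6b2 passed the filter, with group means that stayed under 2 CPM. The 82 members tested are therefore nearly the same set as the broadly expressed ones.

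The whole set carried more of the transcript pool in Th2 cells than in any other culture. Summed over the 88 members, IL-10 negative cells had 34051 ± 886 TPM (SD, n = 3) in Th2, 25502 ± 459 in pTh17, 24145 ± 476 in Th1, 23848 ± 764 in Th17 and 21774 ± 74.2 in Tr1. Th1 and Th17 did not differ beyond their spread there. In IL-10 positive cells Th2 was again highest (34306 ± 240), followed by Th17 (29235 ± 60.7), Th1 (28765 ± 344), pTh17 (24730 ± 319) and Tr1 (23305 ± 853). Of the 82 tested members, 34 had their highest group mean TPM in Th2 IL-10 positive and 20 in Th2 IL-10 negative cells, and 49 had their lowest in Tr1 IL-10 negative cells.

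**Figure D1:**
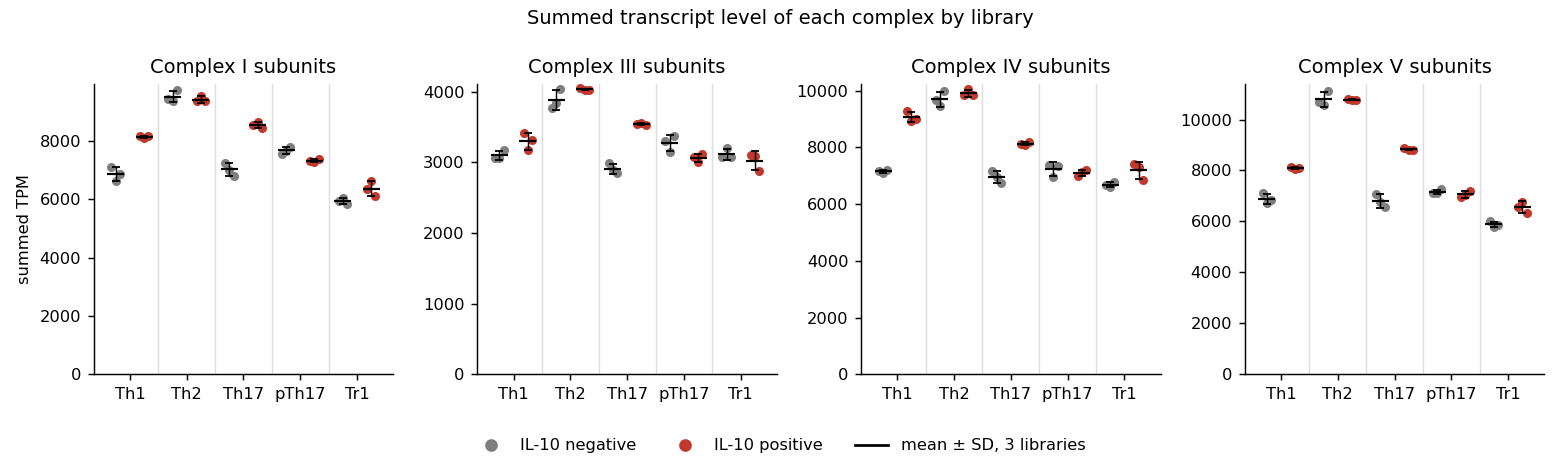
Summed TPM of the subunits of complexes I, III, IV and V by library, with IL-10 negative libraries in grey and IL-10 positive ones in red and the mean ± SD of 3 libraries in black. Th2 groups are the highest for each complex, and IL-10 positive cells lie above IL-10 negative cells for each complex in Th17 but not in pTh17 cells.

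Differences between cultures were tested with edgeR's quasi-likelihood test, adjusted over all 12611 genes tested, at an adjusted p below 0.05. Among IL-10 negative groups 81 of 82 members differed between cultures (background over all genes, 88.2%), and among IL-10 positive groups 79 did (background 92.2%). The shares lie near the background, since most expressed genes differed between cultures. The members with the smallest p were Atp5b, Atp5j, Ndufb8, Cox6a1 and Atp5g1 among IL-10 negative groups and Atp5b, Cox7a2l, Atp5g1, Atp5j and Uqcrc1 among IL-10 positive groups.

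The contrast of Th2 cells with the mean of the other 4 cultures was chosen after the values were seen. Among IL-10 negative cells 73 members were higher in Th2 (background 36%) and 4 lower (background 34.8%), with a median log2 difference of 0.75 against -0.05 over all genes. All 15 subunits of complex V, 11 of 12 of complex IV, 7 of 8 of complex III and 6 of 7 core subunits of complex I were higher. Among IL-10 positive cells 68 members were higher (background 36.3%) and 4 lower (background 32.4%), with a median of 0.47 against -0.01. Atp5g1 was 1.39 ± 0.06 (SE) higher on the log2 scale in IL-10 negative Th2 cells (139 against 54.2 CPM) and 1.18 ± 0.06 higher in IL-10 positive ones. Ndufaf2, an assembly factor, was 1.54 ± 0.15 higher in the negative cells, at 10.3 against 3.75 CPM. The 4 lower members were the same genes in both compartments: Atp5sl (-1.04 and -0.99), Cox7a2l (-0.82 and -0.77), Ndufa6 (-0.51 and -0.23) and Uqcrh (-0.20 and -0.16).
The 26 genes of a cell cycle list moved with this difference: all were higher in Th2 cells of either compartment (median log2 difference 3.21 in negative and 1.33 in positive cells), and their part in the result was not tested.

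IL-10 positive cells had higher levels of most members in 3 of the 5 cultures. Th17 cells had 66 of 82 members higher in the positive compartment (background 29.2% of all genes) and 3 lower (background 28.9%), with a median log2 fold change of 0.51 against -0.04 for all genes. In Th1 cells 50 were higher (background 23.5%) and 6 lower (background 20.4%), with a median of 0.30 against -0.02. In Tr1 cells 47 were higher (background 20.5%) and 3 lower (background 14.2%), with a median of 0.26 against 0.05. Libraries carry the numbers of their titles, and each number is shared by a negative and a positive library of a culture. The Tr1 count fell to 28 without IL-10 negative library 17, to 29 without positive library 17 and to 31 without positive library 18, with the lower count at 2 to 3. It was 22 with no count filter and 31 with scaling by library totals alone. Over 22231 unfiltered genes, the Tr1 median was 0.27 for members against 0.20 for all genes by DESeq2, and 0.15 against 0.09 by edgeR. A set of 36 members rose in all 3 of these cultures: 9 of the 12 complex IV members, 8 of 15 of complex V, 5 of 8 of complex III, 12 of 29 accessory and 2 of 7 core subunits of complex I.

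Th2 and pTh17 cells did not show this. In Th2 cells 5 members were higher (background 12.3%) and 4 lower (background 9.49%), with a median of 0.01 for members and for all genes. These shares are under the background, and each of the 5 higher calls was a change of 0.16 to 0.23. In pTh17 cells 0 members were higher by edgeR (background 10.1%) and 13 lower (background 8.33%), with a median of -0.11 against -0.00. At an unadjusted p below 0.05, 1 member was higher and 24 lower in pTh17 cells, and DESeq2 called 1 higher and 16 lower. With scaling by library totals alone or by limma on TPM, the split in pTh17 cells was 1 higher and 7 lower. Of all genes, 2156 of 12611 and 2143 of 11174 were called there in either direction. The members' median was -0.07 against 0.03 for all genes with library totals, and -0.03 against 0.05 with limma. Without IL-10 positive library 15 the split was 0 higher and 8 lower. In Th2 cells the count of higher members was 0 by edgeR without negative library 8 and 1 without positive library 8; with all libraries 6 were higher and 9 lower at an unadjusted p below 0.05.

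Most changes were small. For 75 of the 82 members the fold change was under 2-fold in each of the 5 cultures. Averaged over the 5 cultures, 60 members were higher (background 29.6%) and 4 lower (background 28.2%), with a median log2 fold change of 0.20 against -0.00 for all genes. No member was called higher in all 5 cultures, and Atp5b, Cox5a and Uqcrb were called higher in 4.

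**Figure D2:**
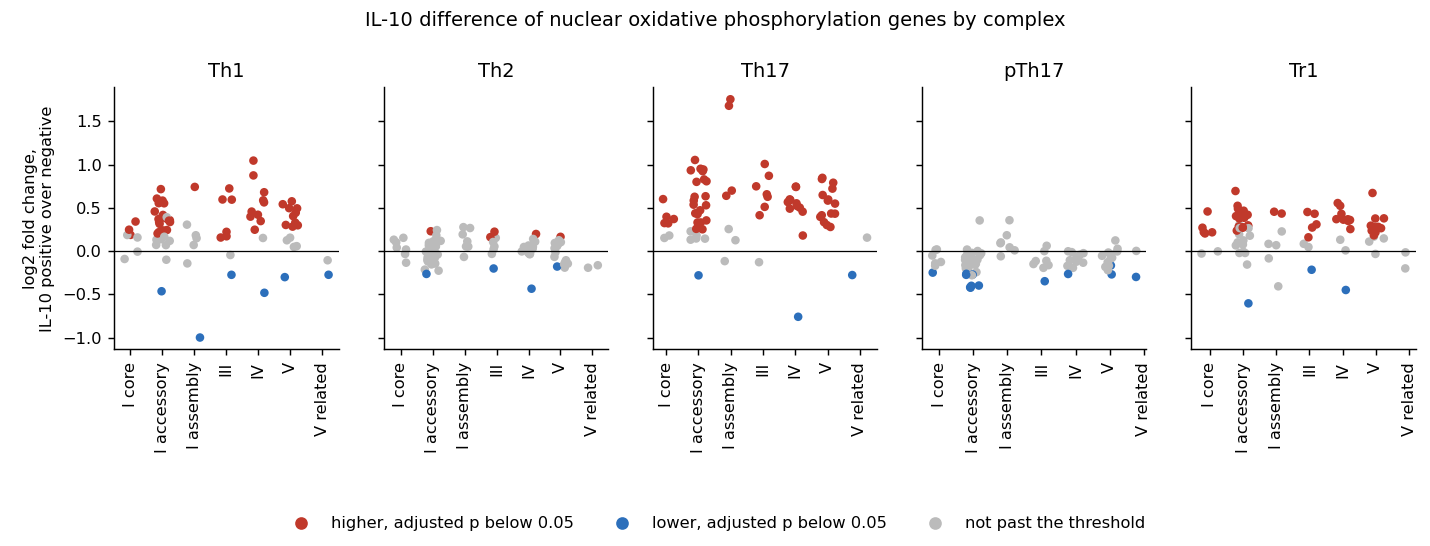
Log2 fold change of IL-10 positive over IL-10 negative cells for the tested members of each role in each culture, 1 point per gene, from edgeR's fit of 30 libraries. Red and blue points passed an adjusted p of 0.05. Most points of complexes I, III, IV and V are red in Th1, Th17 and Tr1, and grey in Th2 and pTh17; 2 tissue-restricted isoforms with under 2 CPM are not drawn.

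Cell cycle genes rose with the members in Th17, Th1 and Tr1 cells, and rose in pTh17 cells, where the members did not. Of 26 listed, 26 were higher in IL-10 positive cells in Th17 and Tr1, 25 in Th1, 24 in pTh17 and 9 in Th2, with median log2 fold changes of 3.17, 2.83, 1.23, 0.48 and 0.12. Genes listed as markers of other cells moved with IL-10 as well, both where members rose and where they fell. Whether their RNA came from other cells or from the sorted T cells was not tested. The 11 B cell genes summed to 109 to 122 CPM in negative and 232 to 310 CPM in positive pTh17 libraries, to 16.6 to 18.8 and 43.5 to 54.2 CPM in Th1, to 5.90 to 9.12 and 19.7 to 23.8 CPM in Th17, to 40.4 to 44.2 and 48.4 to 64.2 CPM in Th2, and to 8.14 to 11.8 and 10.6 to 13.1 CPM in Tr1. Their sums were thus higher without overlap in 4 cultures and overlapped in Tr1, and of the 9 tested 9 passed as higher in pTh17, 4 in Th17, 2 in Th1, 2 in Th2 and 1 in Tr1. The 8 myeloid genes summed to 17.2 to 24.5 CPM in negative and 71.2 to 81.7 CPM in positive Th1 libraries, to 5.08 to 6.81 and 19.0 to 20.5 CPM in Tr1, and to 11.4 to 13.4 and 25.2 to 31.8 CPM in pTh17, and stayed under 5 CPM in Th2 and Th17 libraries. The 6 NK cell genes summed to 7.95 to 8.53 CPM in negative and 82.5 to 85.8 CPM in positive Th1 libraries and to 5.69 to 6.497 and 60.4 to 69.1 CPM in Tr1, and stayed under 6 CPM in the other 3 cultures. The CD8 genes Cd8a and Cd8b1 summed to 23.7 to 27.3 CPM in negative and 42.7 to 51.4 CPM in positive Tr1 libraries, to 20.0 to 27.6 and 30.3 to 36.5 CPM in Th1, and to 9.41 to 12.2 and 17.01 to 18.8 CPM in Th2, and they overlapped in Th17 and pTh17 cells. At most 2 of the 11 B cell, 4 of the 8 myeloid, 4 of the 6 NK cell and 0 of the CD8 genes were at 0 in any group. Of 81 cytosolic ribosomal protein genes, 67 of the 78 tested fell in pTh17, 69 in Th1, 53 in Th2 and 35 in Tr1 cells, and 52 rose in Th17 cells. The part of these genes in the members' result was not tested.

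Whether a member's IL-10 difference depended on the culture was tested with 1 term for each culture. It did for 71 of 82 members (background 60.7%). In a contrast picked with the values in view, against the mean of the other 4 differences, the pTh17 difference was lower for 55 members (background 15.2%) and higher for 1 (background 8.94%), with a median of -0.37 against -0.02. The lower members included 22 of 29 accessory subunits, 7 of 8 of complex III, 10 of 12 of complex IV and 12 of 15 of complex V. The largest of these contrasts was at Ndufs6 (-0.80 ± 0.12), an accessory subunit of complex I. Ndufs6 had 41.7, 31.2 and 39.8 CPM in negative and 53.8, 55.4 and 55.6 CPM in positive Th1 libraries, but 47.6, 43.5 and 57.2 CPM in negative and 39.3, 40.1 and 43.0 CPM in positive pTh17 libraries. The groups do not overlap in either culture and lie in opposite order, but the pTh17 difference of Ndufs6 alone did not pass the threshold (adjusted p = 0.0517, edgeR).

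Complex I is the entry point for electrons from NADH, and its core subunits hold the flavin and the iron-sulphur clusters. Of the 7 nuclear core genes, 5 were higher in IL-10 positive Th17 cells, 5 in Tr1 and 3 in Th1 cells. Ndufv1, which binds NADH, rose in all 3 (0.60 ± 0.08 in Th17, 0.27 ± 0.09 in Tr1, 0.25 ± 0.08 in Th1), as did Ndufv2 (0.32 ± 0.07, 0.22 ± 0.07 and 0.34 ± 0.07). Ndufs8, an iron-sulphur subunit, rose in Tr1 (0.46 ± 0.10) and Th17 cells (0.40 ± 0.09). Ndufs3 rose in Th17 cells (0.32 ± 0.08). Ndufs1, the largest core subunit, rose in Th1 (0.19 ± 0.07) and Tr1 (0.20 ± 0.07) and was the core subunit that fell in pTh17 cells (-0.25 ± 0.07). Ndufs7 passed the threshold in none of the 5 cultures (0.18 ± 0.09 in Th17, adjusted p = 0.0767, by edgeR).

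Accessory subunits surround this core. Ndufa1, a small membrane subunit, rose in Th1 and Tr1 cells. It had 107, 91.4 and 93.7 CPM in negative and 169, 153 and 157 CPM in positive Th1 libraries, a log2 fold change of 0.72 ± 0.08 (adjusted p = 5.64e-09, edgeR). In Tr1 it had 47.1, 51.9 and 45.4 CPM in negative and 75.5, 78.7 and 78.9 CPM in positive libraries (0.69 ± 0.10, adjusted p = 4.07e-07, edgeR). Positive libraries were above all negative ones in both. In Th17 cells Ndufab1, the mitochondrial acyl carrier protein, rose from 27.9, 25.9 and 26.8 CPM to 56.0, 59.6 and 51.3 CPM (1.05 ± 0.11). In pTh17 cells the lowest accessory subunits were Ndufs4 (-0.42 ± 0.09), Ndufb2 (-0.42 ± 0.11), Ndufa6 (-0.40 ± 0.09) and Ndufb4 (-0.40 ± 0.11). Ndufs4 had 84.2, 81.0 and 83.4 CPM in negative and 59.8, 66.0 and 59.7 CPM in positive pTh17 libraries, with no overlap. Ndufb2, Ndufb6 and Ndufv3 were the 3 members that rose in Th1, Th17 and Tr1 and fell in pTh17. In Th2 cells Ndufa10 rose (0.23 ± 0.07) and Ndufa7 fell (-0.26 ± 0.08).

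Among members with at least 5 CPM in either Th17 group, the 2 largest changes in Th17 cells were those of assembly factors, at low levels. Both reached 5 CPM only in the positive group, where they were higher, so this cut favours members that rose. The isoform Cox7a1, at 0.15 CPM in negative and 1.04 CPM in positive cells on average, had a higher fold change (2.62 ± 0.88). Ndufaf2 had 2.95, 3.04 and 3.40 CPM in negative and 12.2, 10.7 and 8.88 CPM in positive Th17 libraries, a log2 fold change of 1.75 ± 0.22 (adjusted p = 7.66e-09, edgeR). Ndufaf6 had 2.95, 1.67 and 1.24 CPM in negative and 5.34, 7.10 and 6.27 CPM in positive Th17 libraries (1.68 ± 0.27, adjusted p = 1.18e-06, edgeR). Neither pair of groups overlapped. Ndufaf6 went the other way in Th1 cells, from 3.74, 4.03 and 3.84 CPM to 1.30, 1.92 and 2.51 CPM (-0.999 ± 0.29, adjusted p = 0.00499, edgeR). This was the lowest fold change of any called member in Th1, and it rests on fewer than 5 CPM.

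Complex III passes electrons from ubiquinol to cytochrome c. Of its 8 genes 7 rose in Th17, 6 in Th1 and 5 in Tr1 cells. Uqcr10, a small subunit, rose in Th17 from 31.3, 31.2 and 33.7 CPM to 62.4, 64.3 and 66.7 CPM (1.01 ± 0.11), and Uqcrq, another, rose by 0.72 ± 0.11 in Th1. In Th2 cells Uqcrb (0.22 ± 0.07) and Uqcrc1 rose while Uqcrh fell. Uqcrh, among the most abundant members, fell in 4 cultures: -0.35 ± 0.07 in pTh17, -0.27 ± 0.07 in Th1, -0.22 ± 0.07 in Tr1 and -0.20 ± 0.07 in Th2. It had 330, 301 and 337 CPM in negative and 267, 254 and 239 CPM in positive pTh17 libraries. In Th17 cells it had 237, 208 and 202 CPM in negative and 216, 184 and 191 CPM in positive libraries, and these groups overlap. Summed over the complex, TPM in positive over negative cells was 1.22 in Th17 and 0.94 in pTh17 cells, without overlap, and the groups overlapped in Th1 (1.06), Th2 (1.04) and Tr1 (0.97).

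Complex IV reduces oxygen. In Th1 cells 10 of 12 members rose and Cox7a2l fell, and the summed TPM of the complex was 1.27 times as high in IL-10 positive cells, the highest ratio of the 4 complexes in that culture. Cox5a, a nuclear-encoded regulatory subunit, was the member with the largest called change in Th1 cells. It had 142, 127 and 119 CPM in negative and 282, 251 and 267 CPM in positive Th1 libraries, a log2 fold change of 1.05 ± 0.07 (adjusted p = 1.36e-14, edgeR). It rose less in Th17 (0.74 ± 0.08), Tr1 (0.56 ± 0.08) and Th2 (0.20 ± 0.07), and in pTh17 libraries it had 159, 142 and 158 CPM in negative and 154, 149 and 156 CPM in positive cells, which overlap. Cox6a1 also rose in Th1 (0.87 ± 0.08), from 96.7, 85.8 and 93.6 CPM to 175, 161 and 170 CPM. In Th17 cells 11 of 12 rose, and in Tr1 cells 9, with Cox5b at 0.52 ± 0.07.

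Complex V makes the ATP. All 15 of its genes rose in IL-10 positive Th17 cells, by 0.28 to 0.85 on the log2 scale, and its summed TPM was 1.30 times as high, the highest ratio of the 4 complexes there. Atp5b, the beta subunit, had 630, 570 and 595 CPM in negative and 1077, 1094 and 1028 CPM in positive Th17 libraries. In pTh17 cells it had 803, 759 and 797 CPM in negative and 767, 779 and 786 CPM in positive libraries, which overlap. Atp5b was the member with the smallest p in the test of equal differences (adjusted p = 3.95e-11, edgeR). In Th2 cells, at 1482, 1432 and 1546 CPM in negative and 1709, 1664 and 1627 CPM in positive libraries, it was 0.16 ± 0.05 higher. In Tr1 cells Atp5k, a small subunit of the membrane part, rose by 0.67 ± 0.17. Atp5h, of the peripheral stalk, fell in pTh17 (-0.27 ± 0.07) and Th2 cells (-0.18 ± 0.07).

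The balance between the 3 subunit c genes, whose start regions are printed above, changed in some cultures. In Th1 cells Atp5g2 had 179, 180 and 182 CPM in negative and 149, 148 and 142 CPM in positive libraries and fell (-0.30 ± 0.07, adjusted p = 0.000542, edgeR), in a culture where 10 of 15 complex V genes rose. In Th17 cells it rose from 125, 110 and 99.01 CPM to 182, 176 and 166 CPM. As a share of subunit c TPM, Atp5g2 went from 46.8% ± 2.2 (SD, n = 3) to 38.5% ± 1.5 in Th1 and from 38.5% ± 0.26 to 34.3% ± 1.1 in Th2, was 40.6% ± 1.5 and 40.4% ± 0.55 in Th17, and was 51.4% ± 0.53 and 50.5% ± 0.54 in pTh17. Atp5g1 had its highest mean share in Th2 cells (18.2% ± 0.16 negative, 19.1% ± 0.21 positive) and its lowest in Tr1 cells (10.5% ± 0.72 and 10.5% ± 0.73). The Th1 negative libraries, at 10.8% to 11.3%, overlapped those of Tr1. Groups overlapped for the Atp5g2 share in pTh17 and Th17 cells and not in Th1, Th2 or Tr1 cells. The gap was narrow in Tr1, with 50.6%, 50.4% and 53.4% in negative and 50.1%, 45.0% and 46.0% in positive libraries. Atp5g2 itself did not pass the threshold there (-0.03 ± 0.07). The 3 genes share most of their mature coding sequence, so reads from it were divided by RSEM's estimate and these shares are less certain than the sum.

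**Figure D3:**
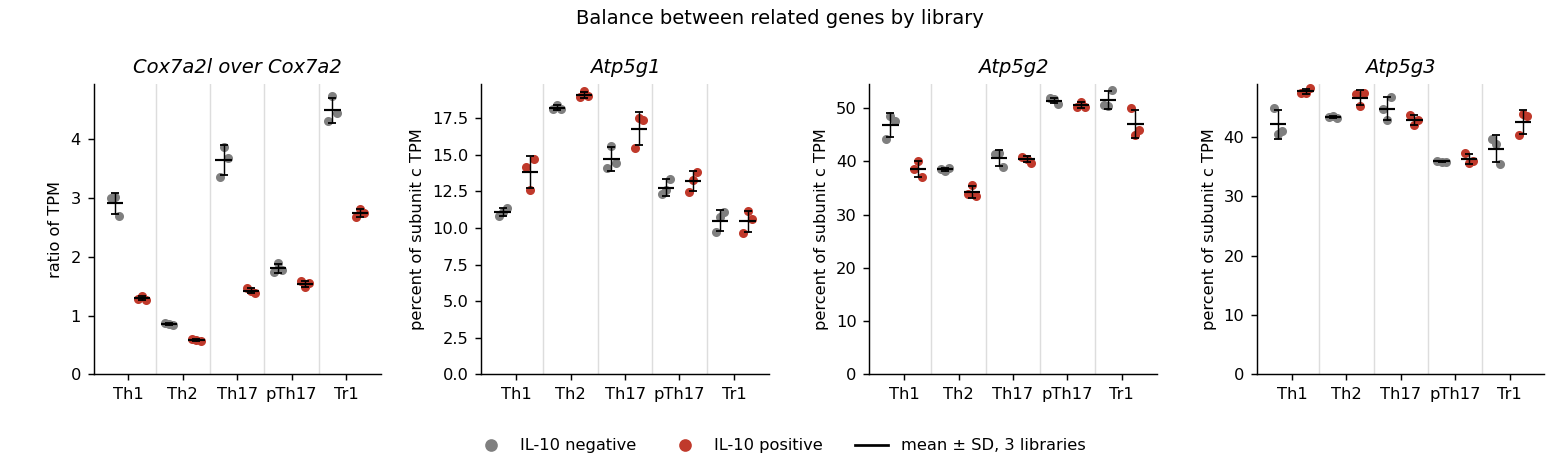
The ratio of Cox7a2l to Cox7a2 TPM and the percent of subunit c TPM from Atp5g1, Atp5g2 and Atp5g3, by library, with the mean ± SD of 3 libraries. The ratio is lower in IL-10 positive cells in each of the 5 cultures. The Atp5g2 share separates the compartments in Th1 and Th2 cells and, by a narrow gap, in Tr1 cells.

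In the mean over the 5 cultures 4 members fell in IL-10 positive cells while 60 rose: Cox7a2l (-0.48 ± 0.03), Ndufa6 (-0.38 ± 0.04), Uqcrh (-0.23 ± 0.03) and Atp5sl (-0.21 ± 0.05). Their fold changes were below 0 in all 5 cultures. Atp5sl was the exception to a stable sign: in Tr1 (-0.01) and Th2 it did not pass the threshold, and its sign turned in Tr1 under scaling by median of ratios, under DESeq2 and without library 18 of either compartment, and in Th2 with libraries thinned to the smallest total. Cox7a2l was the 1 member called lower in all 5 cultures. It had 613, 560 and 576 CPM in negative and 433, 412 and 407 CPM in positive Th1 libraries, and 449, 414 and 404 CPM in negative and 259, 248 and 242 CPM in positive Th17 libraries. In Tr1 it had 608, 609 and 678 CPM in negative and 438, 467 and 483 CPM in positive libraries. The groups did not overlap in any culture. The log2 fold changes were -0.76 ± 0.06 in Th17, -0.48 ± 0.06 in Th1, -0.45 ± 0.06 in Tr1, -0.43 ± 0.06 in Th2 and -0.26 ± 0.06 in pTh17 cells. C57BL/6 mice are known to carry a shortened form of this protein, so transcript level and working protein need not match in this strain.

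Cox7a2, its relative within complex IV, was set beside it. The ratio of Cox7a2l to Cox7a2 TPM went from 2.91 ± 0.18 to 1.29 ± 0.03 in Th1, from 3.63 ± 0.25 to 1.42 ± 0.04 in Th17, from 4.49 ± 0.21 to 2.74 ± 0.07 in Tr1, from 0.86 ± 0.02 to 0.59 ± 0.01 in Th2 and from 1.81 ± 0.08 to 1.54 ± 0.05 in pTh17 cells. Cox7a2 was the higher of the pair in Th2 cells alone among the 5 cultures. The pair was set side by side after their values were seen.

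Ndufa6, an accessory subunit of complex I, fell in 4 cultures. In Tr1 it had 155, 139 and 154 CPM in negative and 77.6, 114 and 102 CPM in positive libraries (-0.60 ± 0.09, adjusted p = 2.47e-06, edgeR). In Th1 it had 136, 123 and 127 CPM in negative and 102, 92.4 and 85.9 CPM in positive libraries (-0.46 ± 0.09). It also fell in pTh17 (-0.40 ± 0.09) and Th17 cells (-0.28 ± 0.09), whereas in Th2 its libraries overlapped (92.5, 84.9 and 99.5 against 84.7, 85.9 and 78.5 CPM). Atp5sl, whose product is known as a complex I assembly protein in spite of the name, fell in Th1 (-0.27 ± 0.10), Th17 (-0.28 ± 0.11) and pTh17 cells (-0.30 ± 0.11), each with an adjusted p by edgeR between 0.0241 and 0.0456.

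**Figure D4:**
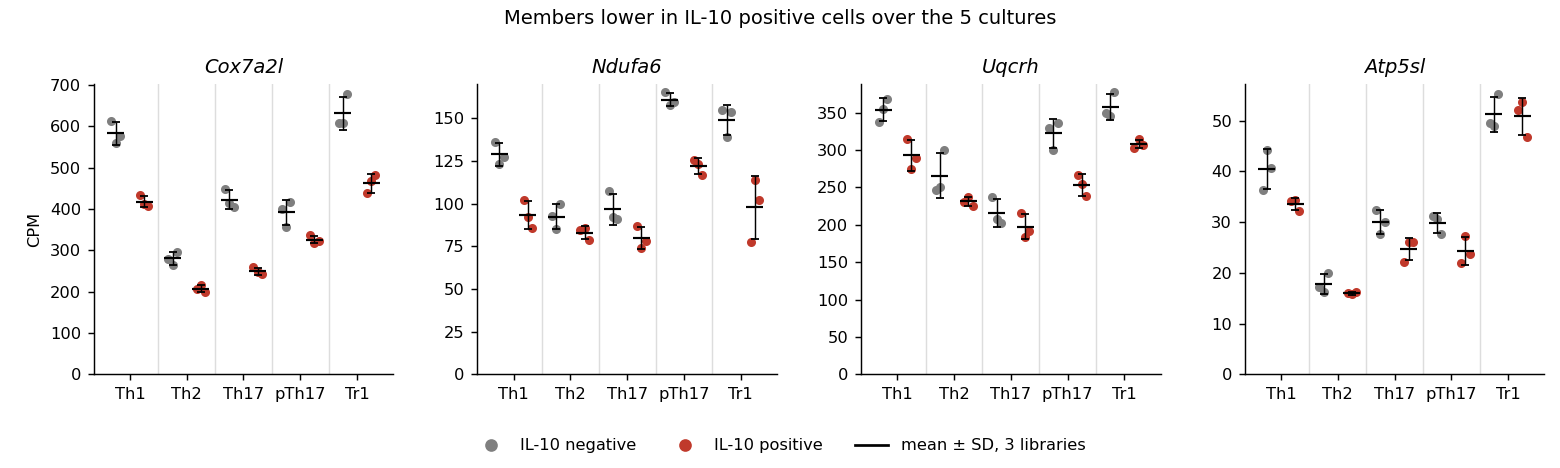
CPM by library of Cox7a2l, Ndufa6, Uqcrh and Atp5sl, with IL-10 negative libraries in grey, IL-10 positive ones in red and the mean ± SD of 3 libraries in black. For Cox7a2l the positive libraries lie below the negative ones in each of the 5 cultures.

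The 2 Th17 cultures differed in their IL-10 negative cells. There 70 members were higher in pTh17 than in Th17 cells (background 31.1%) and 1, Ndufs1 (-0.18 ± 0.07), was lower (background 28.9%), with a median log2 difference of 0.52 against -0.01. All 8 genes of complex III, 27 of 29 accessory subunits, 14 of 15 of complex V and 10 of 12 of complex IV were higher. Ndufv3, an accessory subunit next to the NADH site, had 156, 151 and 161 CPM in pTh17 and 72.1, 56.7 and 53.8 CPM in Th17 negative cells (1.36 ± 0.09). Ndufaf6 (2.05 ± 0.26, 8.09 against 1.95 CPM), Ndufaf2 (0.98 ± 0.24) and Atp5g2 (0.94 ± 0.07) were with it the 4 highest among members with at least 5 CPM in either group. Ndufaf6 and Ndufaf2 reached a mean of 5 CPM only in pTh17 cells, where they were higher. Below that level Cox6b2 (3.16 ± 0.84), Cox7a1 (2.47 ± 0.92) and Atp5s (1.08 ± 0.33) were called higher too. These counts depended on scaling. With library totals alone the counts were 52 higher and 3 lower, with a median of 0.38 for members against -0.15 for all genes. With limma on log2(TPM + 1) they were 37 higher and 16 lower, with 0.12 against -0.35. The median of all genes had moved by -0.14 and -0.34, and the members' median stayed above it.

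In IL-10 positive cells the order was mixed, with 18 members higher in pTh17 (background 27.8%) and 31 lower (background 28.9%), and a median of -0.13 against 0.00. The higher share is under the background and the lower share above it. With library totals alone the counts were 11 and 45, with a median of -0.24 for members against -0.10 for all genes. With limma on TPM they were 10 and 55, with -0.30 against -0.19. The lowest were Ndufaf4 (-0.89 ± 0.14), Ndufa4 (-0.82 ± 0.07), Ndufa5 (-0.61 ± 0.12) and Atp5a1 (-0.59 ± 0.06). Ndufa4, a complex IV subunit, had 115, 111 and 117 CPM in pTh17 and 205, 201 and 199 CPM in Th17 positive cells. The highest called members with at least 5 CPM in either group were Ndufv3 (0.66 ± 0.09), Ndufa6 (0.61 ± 0.09), Ndufaf3 (0.53 ± 0.13) and Atp5d (0.40 ± 0.07), while Cox6b2 (3.46 ± 0.84) and Atp5s (0.93 ± 0.31) were called higher below that level. Between pTh17 and Th17 cells 24 of 26 cell cycle genes were higher in the negative and 21 lower in the positive compartment, and 75 and 60 of 78 cytosolic ribosomal protein genes were higher. The B cell genes summed to 109 to 122 CPM in pTh17 against 5.90 to 9.12 CPM in Th17 negative libraries, and to 232 to 310 against 19.7 to 23.8 CPM in positive ones. The myeloid genes summed to 11.4 to 13.4 against 3.25 to 4.56 CPM in negative and 25.2 to 31.8 against 1.55 to 4.95 CPM in positive libraries. The part of these 4 lists in the result was not tested.

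**Figure D5:**
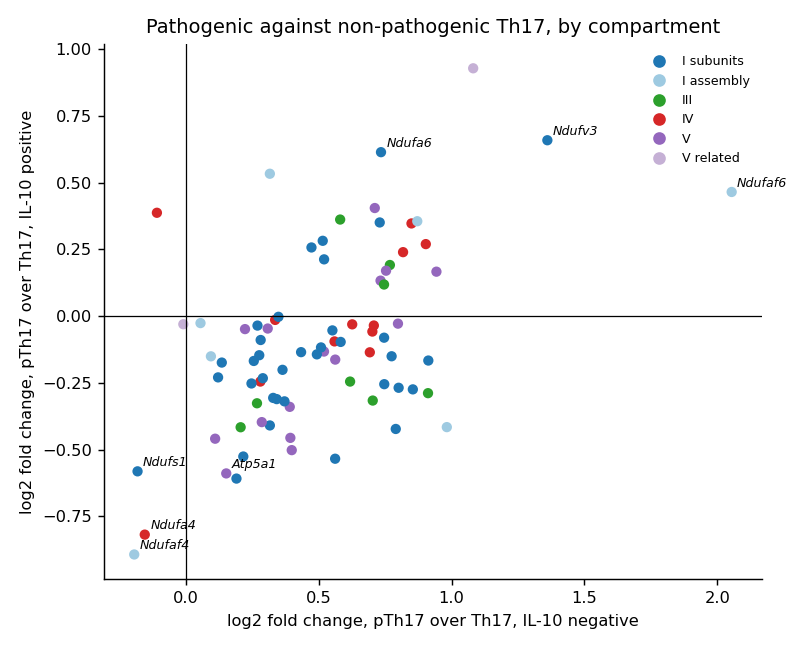
Log2 fold change of pTh17 over Th17 cells for 80 members outside the tissue-restricted isoforms, in IL-10 negative (horizontal) and IL-10 positive cells (vertical), coloured by complex, from edgeR's fit. Most points lie right of 0 and below 0, Ndufv3 and Ndufa6 are above 0 on both axes, and Ndufs1, Ndufa4 and Ndufaf4 are below 0 on both.

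Complex II, which feeds electrons from succinate, had 3 of its 4 genes higher in Th1 and Th17 IL-10 positive cells, with Sdhd at 0.59 ± 0.08 and 0.63 ± 0.08 and Sdhb at 0.45 ± 0.07 and 0.52 ± 0.07. Its flavin subunit Sdha did not pass in these cultures (-0.09 ± 0.05 and 0.12 ± 0.05) and fell in Tr1 cells (-0.20 ± 0.05), where Sdhd rose by 0.56 ± 0.09. Cycs, cytochrome c, rose in Tr1 (0.67 ± 0.07) and Th1 (0.46 ± 0.07) and fell in pTh17 (-0.24 ± 0.07). Cyc1, the cytochrome of complex III, rose in Th17 by 0.67 ± 0.08.
Of 32 assembly factors outside the rule, 13 rose and 5 fell in Th17 cells, 8 and 4 in Th1, 6 and 2 in Tr1, 1 and 2 in Th2, and 3 fell in pTh17 cells. The share that rose was above the background of 29.2% in Th17, near those of 23.5% in Th1 and 20.5% in Tr1, and under that of 12.3% in Th2. Among the genes that rose were Atpif1, the inhibitor of reverse ATP synthase action (1.85 ± 0.14 in Th17), Sco1, a copper carrier for complex IV (1.76 ± 0.15 in Th17 and 1.19 ± 0.15 in Th1), and Cox17, another copper carrier (1.05 ± 0.10 in Th1).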

How the data were processed

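The 30 libraries, 3 in each of 10 groups, were grouped by their titles. Libraries followed an adapted SMART-Seq2 protocol, per the labels' protocols, which keeps no strand and no molecular identifiers, so reads of overlapping genes and paralogs may be shared. The protocol text names Thy1.1 positive cells for either compartment, so groups follow the titles. The authors deposited RSEM's expected counts for each library, which can be fractional, per the file headers. TPM and another deposited measure, gene length, stand beside them, per the file headers. The submitters' processing notes name RSEM and mm10, with the RSEM version and aligner not given in the sources used here. No 2 libraries held identical values (0 identical pairs).

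Expected counts were rounded. edgeR 4.0.16 in R 4.3.3 kept 12611 genes by filterByExpr, scaled libraries by TMM and fitted 1 quasi-likelihood model with 10 group means to the 30 libraries. Its two-sided p-values were Benjamini-Hochberg adjusted over all genes tested. Each standard error is the absolute log2 fold change divided by the root of its F statistic. CPM used TMM-scaled totals. TPM were used as deposited, for levels, for their sums, shares and ratios, and in the limma alternative. The scripts were tested on simulated data. Alternatives were median-of-ratios size factors, library totals alone, DESeq2 1.42.0, no filter, limma 3.58.1 on log2(TPM + 1), thinning to the smallest total, the 6 libraries of a culture, the title number as a block, and each library left out in turn. Members and lists were chosen with earlier results of these data known. Named members were up to 4 highest and 4 lowest called changes with at least 5 CPM per comparison, called members against the main direction, the 10 members with the smallest p for unequal differences, the 5 smallest of each test between cultures, the 6 highest by TPM, the isoforms, the subunit c genes and the core subunits; one item is not reported here, and those named beside them for a pair or a contrast were chosen after their values were seen. The cut of 5 CPM was set on the mean over the compared libraries. Where the text says either group, the higher group mean was enough. Promoter sequences came from RefSeq (GRCm38.p6).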

Additional observations from a re-analysis of the deposited data

Results flagged for a closer look

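The IL-10 difference varied between the 5 cultures for 71 of 82 members (edgeR, 60.7% of all genes tested). The smallest adjusted p-values by edgeR were those of Atp5b (3.95e-11), Cox5a (2.16e-10), Atp5g2 (1.25e-09), Atp5j (3.98e-09), Cox6a1 (4.43e-09), Cox6c (7.81e-09), Ndufa1 (8.67e-09), Ndufc2 (2.09e-08), Ndufb8 (2.58e-08) and Ndufb6 (2.73e-08). The IL-10 difference of pTh17 cells was below the mean of the other 4 differences for 55 members and above it for 1, Cox7a2l (0.27 ± 0.07), which fell least in pTh17 cells.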

How the results depend on the processing

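The counts of the mean over the 5 cultures (57 to 62 higher, 4 to 5 lower), of the test of equal differences (65 to 72) and of the higher members in Th1 and Th17 stayed within 1.5 times of the reported ones under all alternatives run. Without the filter on low counts, Th2 had 2 members higher and 2 lower, Tr1 22 higher and pTh17 against Th17 in negative cells 0 lower. With library totals alone, pTh17 had 1 higher and 7 lower, Tr1 31 higher, and pTh17 against Th17 3 lower in negative and 11 higher in positive cells. With limma on TPM, Th17 had 5 lower, pTh17 1 higher and 7 lower, pTh17 against Th17 37 higher and 16 lower in negative and 10 higher and 55 lower in positive cells, and Th2 against the others 7 lower in positive cells. DESeq2 gave 1 higher in pTh17, the 6 Th2 libraries alone 11 lower, and thinning 2 lower in negative pTh17 against Th17 cells. The cause was not tested.

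Over the libraries left out in turn, the counts of higher and lower members ran from 36 to 54 and 5 to 6 in Th1, 0 to 5 and 1 to 3 in Th2, 60 to 67 and 1 to 3 in Th17 (1 without negative library 10), 0 to 1 and 8 to 17 in pTh17 (1 higher without negative library 14), and 28 to 44 and 2 to 3 in Tr1. They ran from 62 to 71 and 0 to 2 in negative and from 14 to 18 and 25 to 30 in positive pTh17 against Th17 cells, from 44 to 58 lower in the pTh17 contrast, and from 65 to 69 and 2 to 4 in positive Th2 cells against the others (2 without positive library 9). In Th2, 5 of 6 libraries left out took the higher count to 3 or fewer.

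As a log2 ratio of summed TPM, the set stood at 0.29 in Th17, 0.10 in Tr1 and -0.04 in pTh17 cells; as summed CPM the ratios were 0.45, 0.15 and -0.12. In Th2 the ratio of 0.01 became -0.0033 without negative library 8, and ran from -0.0033 to 0.0321. Complex III in Tr1 turned to 0.0463 and complex V in Th2 to 0.0372 with CPM. With libraries left out, complex I in Th2 ran from -0.0258 to 0.0018 and complex V from -0.0180 to 0.0196, both highest without negative library 9. Atp5sl turned to 0.0466 in Th2 when thinned and in Tr1 to 0.0063 with median of ratios and 0.0061 with DESeq2, and ran in Tr1 from -0.0582 to 0.0441, above 0 without library 18 of either compartment.

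Each title number is shared by a negative and a positive library of the same culture. Same-numbered libraries correlated between -0.05 and 0.08 in their deviations, and 8 of 15 negative libraries correlated best with their own number. With 3 libraries per group these values cannot show whether the libraries were paired, and the number was used as a block in an alternative fit only. With the replicate block, 49 members were higher in Th1, 48 in Tr1 and 57 lower in the pTh17 contrast, and the one named call lost was Atp5sl in pTh17. Depth limits the assembly factors and isoforms under 5 CPM most.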

Other observations

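Genes that serve the mitochondrial genome and its ribosomes were not part of the set. Of 76 mitochondrial ribosomal protein genes, 64 rose in IL-10 positive Th17 cells, 30 rose and 3 fell in Tr1, 28 rose and 5 fell in Th1, 7 rose and 3 fell in Th2, and 5 fell in pTh17 cells. The shares that rose were above those of all genes tested in Th17 (29.2%), Tr1 (20.5%) and Th1 (23.5%) and under it in Th2 (12.3%). Of 15 genes for mitochondrial DNA expression, 8 rose and 2 fell in Th17 cells. These included Tfb1m, which modifies mitochondrial ribosomal RNA (1.45 ± 0.32, at a mean of 4.8 CPM over all libraries), Tsfm, a translation elongation factor (0.94 ± 0.14), Slirp, an RNA-binding partner of Lrpprc (0.88 ± 0.14), and Tefm, a transcription elongation factor (0.86 ± 0.27).

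Of 9 nuclear regulators of respiratory genes, 3 rose and 2 fell in Th17, 2 fell in Th1, 1 fell in Th2 and 1 rose in Tr1 cells. In Th17 these shares are about those of all genes tested (29.2% higher and 28.9% lower), so they show nothing particular to the regulators. Ppargc1a, a coactivator, fell in Th17 (-2.21 ± 0.89) and rose in Tr1 cells (2.15 ± 0.76), at a mean of 0.47 CPM over all libraries. Pprc1, a related coactivator, rose in Th17 (0.71 ± 0.12), and Yy1 fell there (-0.73 ± 0.25). Among 9 hypoxia-linked genes Bnip3 (2.32 ± 0.11 in Th17) and Egln3 (1.80 ± 0.10 in Th1 and 1.36 ± 0.09 in Th17) rose, while Cox4i2 and Ndufa4l2, on the same list, had 43 and 3 counts over the 30 libraries. The list summed on average to 897 CPM in negative and 1840 CPM in positive Th17 cells. The sums were 1899 and 2367 CPM in Th1 and 2350 and 2653 CPM in pTh17 cells. In Tr1 (1102 and 1137 CPM) and Th2 cells (1528 and 1487 CPM) the libraries overlapped.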
